A study of Mus musculus with 8 samples.

Results

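Gene expression in liver was compared with gene expression in uterus across the whole series, which holds 8 RNA libraries, 4 of each tissue. All 8 were used, and each liver library was matched to the uterus library of the same treatment. The animals were female CD-1 mice, an outbred stock, ovariectomized at 6 weeks of age and left for 1 week before treatment. Ovariectomy removes the main source of estrogen and progesterone, and every group shares it. The control libraries came from mice given neither agent. The BPA libraries came from mice given bisphenol A, a building block of plastics with weak estrogenic action, at 200 mg/kg/day. The KRG libraries came from mice given Korean red ginseng at 1.2 g/kg/day, and the fourth group received both agents. All dosing was oral and daily for 7 days. Single animals and pools are not distinguished in the labels, and neither is it recorded if a mouse gave both tissues. The 4 libraries of a tissue differ in treatment, so the error given here is the spread of the tissue difference over 4 treatments. The p-values come from a count model that shares information on spread between genes, so they do not measure a gene's own SD. Neither holds a measure of spread within a treatment.

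The liver makes most plasma proteins, clears drugs and hormones, produces bile, and keeps blood glucose and ammonia in range. Hepatocytes fill most of its mass, and their identity is held by a network of transcription factors that includes the nuclear receptor HNF4A. The uterus is a tube of epithelium, stroma and smooth muscle that forms from the Mullerian duct and is steered by estrogen and progesterone through their nuclear receptors. After ovariectomy the epithelium and glands regress, while the muscle and stroma remain.

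Libraries were made with a 3′ end kit (QuantSeq), which counts about 1 read per transcript whatever the transcript's length, so no division by length was made where levels of different genes are set side by side. Levels are CPM, a gene's count scaled to a common library total. Unless said otherwise, the 4 values of a tissue are given for control first, then BPA, then KRG, then both agents. Differences are liver minus uterus in log2(CPM + 1), given as the mean ± SD over the 4 matched pairs, and 1 unit is a doubling. The pseudocount of 1 CPM understates the difference of low genes. Library totals ran from 12372073 to 15290950 counts, with 8.30% to 12.4% of each taken by Rn45s, the ribosomal RNA precursor. In bulk tissue, a lower value cannot be told apart as fewer cells of a type or less RNA per cell.

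The tissue labels were first checked against 6 marker genes. Alb, which encodes serum albumin (chr5:90460870-90476602), stood at 12849, 11550, 13814 and 15211 CPM in liver and at 239, 4.81, 407 and 2.09 CPM in uterus. Ahsg, the plasma protein fetuin-A (chr16:22892015-22899451), stood at 20926, 14549, 17858 and 18558 CPM in liver and at 162, 2.92, 273 and 0.541 CPM in uterus. Fabp1, the liver fatty acid binding protein (chr6:71199879-71205034), stood at 7123, 4331, 5853 and 3817 CPM in liver and at 95.1, 1.02, 109 and 0.338 CPM in uterus. Liver was far above uterus for all 3 in every pair, but the 4 uteri differed among themselves, with the control and KRG uteri high and both BPA-treated uteri near 0. The differences were 8.51 ± 3.63 for Alb, 9.61 ± 3.66 for Ahsg and 8.62 ± 3.07 for Fabp1.

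The markers of uterus went the other way. Pgr, the progesterone receptor (chr9:8898900-8968611), had 121, 75.2, 78.9 and 49.3 CPM in uterus and 0, 0, 0.0685 and 0 CPM in liver, with a difference of -6.27 ± 0.53. Sox17, a transcription factor of endothelium and uterine epithelium (chr1:4490928-4497426), had 73.7, 73.2, 80.7 and 88.2 CPM in uterus against 1.504, 0.617, 2.12 and 1.54 CPM in liver. Esr1, the estrogen receptor alpha (chr10:4611989-5005633), had 194, 153, 150 and 88.5 CPM in uterus and 24.8, 11.9, 17.1 and 24.5 CPM in liver, so it was present in both tissues and higher in uterus. No library overlapped the other tissue for any of the 6 markers, and all 8 libraries matched their tissue label. Over all 13692 genes tested, every liver lay above every uterus for 14.6%, and every uterus above every liver for 63.0%. Lack of overlap towards uterus was thus shared by most genes. Gene positions are from RefSeq on GRCm38.p6.

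Liver transcripts were nevertheless present in all uterus libraries, and at very different levels. Over 215 genes that the liver lists hold and that averaged at least 100 CPM in liver, the level in uterus as a share of the matched liver had a median of 2.17% in the control uterus and 4.50% in the KRG uterus. In these 2 uteri, 116 and 133 of the 215 genes lay within 2-fold of that median, and none was under 0.1%. In the BPA uterus and the uterus given both agents the medians were 0.304% and 0.337%, and 90 and 97 of the genes were under 0.1%. The summed level of 35 plasma protein genes had the same order, with 2094 and 4477 CPM in the control and KRG uteri against 541 and 711 CPM in the uteri given BPA and both. Of the 215 genes, 54, 51, 64 and 52 stood above 10% of liver in the control, BPA, KRG and BPA plus KRG uteri. C1qa, Pros1 and Pltp were among them in every uterus. Whether liver RNA entered these libraries from outside the uterus was not tested. Leading counts below were therefore also made without the control and KRG uteri, an alternative chosen after seeing the data. With 2 uteri left, that fit also dropped the treatment block and asked for 1 CPM in 2 libraries, so 3 choices changed together.

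**Figure D1:**
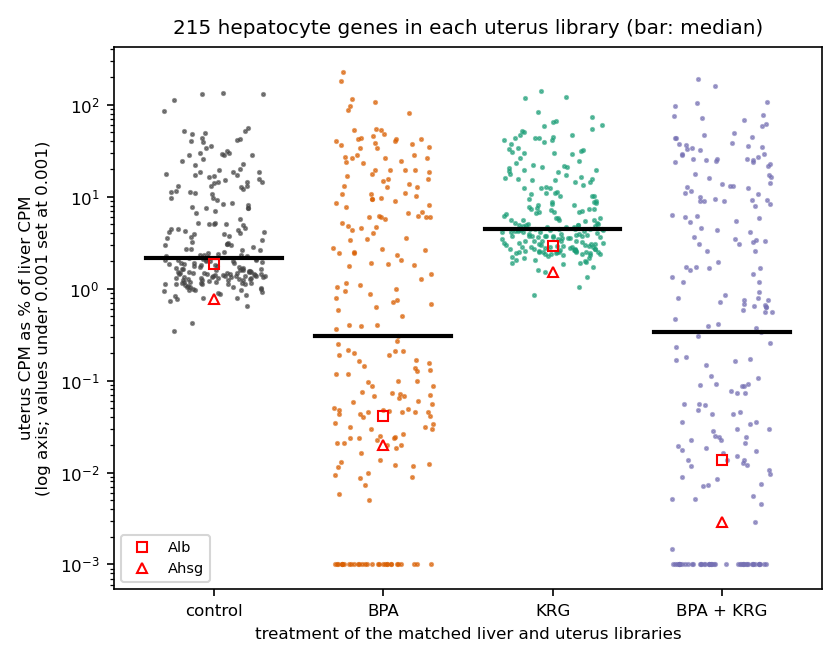
Uterus level as a percentage of the matched liver level (log axis) for 215 genes of the liver lists, not all of them particular to hepatocytes. There is 1 point a gene and 1 column a treatment, with the median as a bar. The control and KRG uteri form a band around 2.17% and 4.50%, while in the uteri given BPA or both many genes lie under 0.1%.

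Where the hepatocyte transcripts were absent, the tissue difference could only be bounded. At least 10 CPM in every liver and no count in either BPA-treated uterus was found for 69 genes. Of these, 1 (Mup20) was also at 0 in the control uterus, and none in the KRG uterus. Against a floor of 3 counts in the BPA uterus (0.219 CPM), the lowest liver was at least 2016-fold higher for Akr1c6, a steroid-converting aldo-keto reductase. The same bound was 1408-fold for Hrg, the plasma histidine-rich glycoprotein, 1293-fold for Itih1, an inter-alpha-trypsin inhibitor heavy chain, and 879-fold for Fga, the fibrinogen alpha chain. These bounds hold for the BPA-treated uteri only. In the control and KRG uteri Akr1c6 had 7.10 and 13.5 CPM and Hrg had 5.75 and 11.2 CPM. Itih1 had 5.01 and 7.24 CPM there, and Fga had 2.09 and 5.16 CPM. In the other direction, 18 genes had at least 10 CPM in every uterus and no count in any liver. Among them were the homeobox genes Hoxa10, Hoxa11, Hoxd10 and Hoxa9, at least 412-fold, 309-fold, 167-fold and 123-fold higher in uterus against the same kind of floor (0.242 CPM), and the basal keratin Krt5, at least 214-fold higher. Hoxa10 had 149, 125, 134 and 99.9 CPM and Hoxa11 had 124, 128, 74.8 and 75.7 CPM in uterus. Hoxa11 overlaps its antisense gene Hoxa11os, and their reads may not be separable.

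Across 13692 genes tested, edgeR's quasi-likelihood test with treatment as a block called 2052 genes higher in liver (15.0%) and 8748 higher in uterus (63.9%) at an adjusted p under 0.05. The split depended on scaling. Liver libraries were the more concentrated, with 50% of the counts in 168 to 203 genes against 356 to 492 in uterus. The median difference of all genes was -0.98 with column totals. With TMM factors, which centre the bulk of genes, it was -0.15, and the calls became 4213 in liver (30.8%) and 5239 in uterus (38.3%). Calls made under both scalings numbered 2052 in liver (15.0%) and 5239 in uterus (38.3%), and only these are counted as higher below. The remaining 3509 uterus calls were lost with TMM, 236 of them with the opposite call. A call together with a difference of at least 8-fold was made for 578 genes in liver (4.22%) and 1290 in uterus (9.42%) with column totals. All 4 livers lay above all 4 uteri for 1998 genes (14.6%), and all 4 uteri lay above all 4 livers for 8632 (63.0%). Without the control and KRG uteri, 2046 genes were called in liver, of which 1893 were among the 2052.

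**Figure D2:**
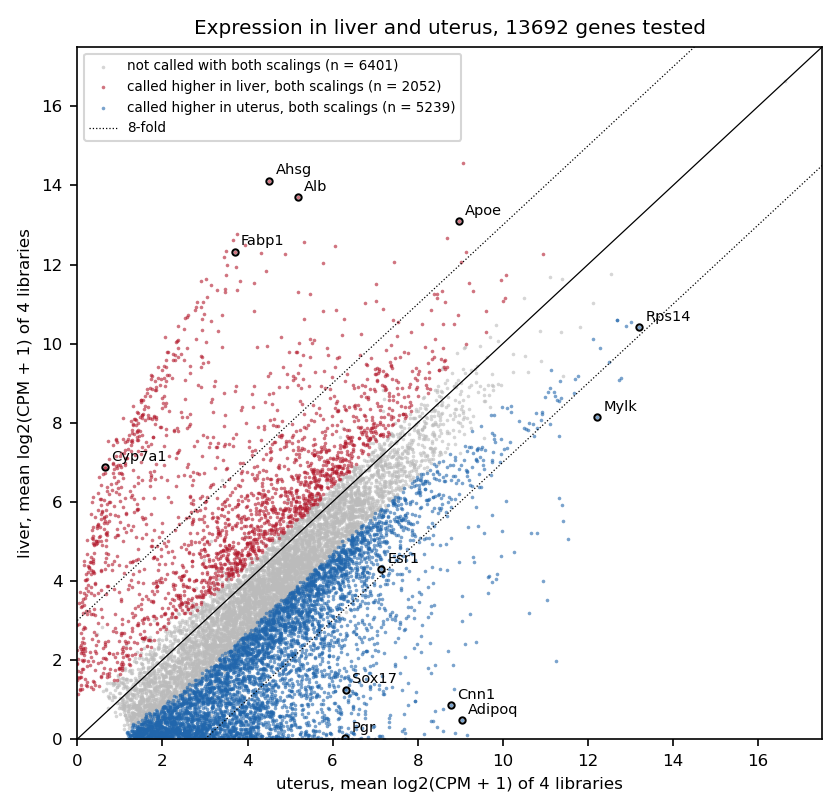
Mean log2(CPM + 1) of the 4 libraries in liver (vertical) against uterus (horizontal), 1 point for each of 13692 genes, with the line of equality and 8-fold lines. The 2052 genes called higher in liver under both scalings are red and the 5239 called higher in uterus are blue.

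The difference between tissues was large beside the difference between libraries of 1 tissue, in which treatment cannot be told apart from other sources. The SD of log2 ratios over genes was 0.412 to 0.479 between 2 livers, 0.466 to 0.896 between 2 uteri, and 1.81 to 2.20 between a liver and a uterus. For 12933 genes (94.5%) the SD of the 4 matched differences was under 1. The most abundant gene after Rn45s was Trf, the iron carrier transferrin, at 24260 ± 2914 CPM (SD, n = 4) in liver. In uterus it was Rps14, a ribosomal protein gene, at 9509 ± 1634 CPM (SD, n = 4).

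Plasma protein genes had the highest median difference of the lists. All 35 tested were higher in liver, with a median difference of 6.98 where the median over all genes was -0.98, and all 35 were called again without the control and KRG uteri. Serpina3k, a serine protease inhibitor, had 4614, 6717, 5197 and 4573 CPM in liver and 64.6, 0.583, 141 and 0.0676 CPM in uterus. Fgb, the fibrinogen beta chain, had 5337, 3831, 4484 and 5210 CPM in liver and 51.8, 0.802, 117 and 0.270 CPM in uterus. The livers of both genes lay within 2-fold of each other, while the uteri spanned more than 2 orders of magnitude. Hp, haptoglobin, an acute phase protein that binds free hemoglobin, differed by 4.63 ± 1.09 and had the largest ratio of highest to lowest liver of the 35 genes, at 2339, 4058, 4687 and 7545 CPM. Genes of the Serpina1 and Mup families have near-identical copies, and their separate counts are uncertain.

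Promoters of these genes are shown because a 6-letter run, GTTAAT, was found in them more often than in other windows, a description with no test. RefSeq windows of 300 bases, from 250 before to 50 after the start, were available for 10350 of the 13692 genes tested (13221 windows). GTTAAT on either strand was held by 11 of 29 windows of plasma protein genes (37.9%), by 16.3% of windows of genes at least 8-fold higher in liver, by 4.83% of all windows tested and by 7.10% of the whole table. Windows are not all independent, since those of Serpina1a and Serpina1c hold nearly the same stretch. The window of Ahsg held no match. The matches below lie before the start, with the match in capitals, and read 5′ to 3′ on the gene's strand of GRCm38.p6. ATTAAC is the same run on the other strand.
Alb, chr5:90460813-90460868, plus strand: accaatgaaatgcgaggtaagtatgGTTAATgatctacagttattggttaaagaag
Gc, chr5:89457920-89457975, minus strand: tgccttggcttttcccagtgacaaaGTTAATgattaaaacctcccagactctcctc
Fga, chr3:83026085-83026140, plus strand: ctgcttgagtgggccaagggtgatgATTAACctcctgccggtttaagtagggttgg
Fgb, chr3:83049862-83049917, minus strand: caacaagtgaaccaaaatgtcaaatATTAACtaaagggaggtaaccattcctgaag
Serpina1a, chr12:103863610-103863665, minus strand: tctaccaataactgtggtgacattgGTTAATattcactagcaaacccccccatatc
Itih1, chr14:30943286-30943341, minus strand: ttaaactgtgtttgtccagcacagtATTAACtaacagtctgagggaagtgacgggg

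The matches begin 21 to 52 bases before the start in these 6 promoters. Alb, Gc (the vitamin D binding protein), Fga, Fgb, Serpina1a (alpha-1-antitrypsin) and Itih1 had 13356, 1983, 284, 4715, 6110 and 307 CPM on average in liver. Promoters of genes at least 8-fold higher in liver also differed in base content, with a median GC content of 51.0% against 60.3% over all windows tested. They held TATAAA in 19.02% of windows against 7.87%, and the GC box GGGCGG in 25.4% against 59.7%. The HNF4 run CAAAGTCCA was held by 3.44% of windows against 0.507%, but by none of the 29 windows of plasma protein genes. The core of the C/EBP site was held by 0.181% of windows against 0.310%. Cyp8b1, a bile acid hydroxylase, and Cyp2c70, which makes muricholic acids in mice, are shown as examples of the HNF4 run CAAAGTCCA.
Cyp8b1, chr9:121916339-121916397, minus strand: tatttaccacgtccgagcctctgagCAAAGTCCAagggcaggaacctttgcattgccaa
Cyp2c70, chr19:40187317-40187375, minus strand: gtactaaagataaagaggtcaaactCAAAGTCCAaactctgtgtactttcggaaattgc

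All counts were on both strands, and a match is a description of letters, not evidence of binding. Cyp8b1 had 44.5, 197, 55.0 and 32.3 CPM in liver, with the BPA liver far above the other 3, and Cyp2c70 had 584, 583, 468 and 719 CPM. Both were at or under 11.7 CPM in every uterus.

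Apolipoprotein and lipoprotein assembly genes followed the plasma proteins, with 17 of 19 higher in liver and a median difference of 6.27. Apoa2, of high density lipoprotein, had 7330, 7777, 6444 and 6481 CPM in liver and 74.4, 0.729, 176 and 0.473 CPM in uterus. Apoe, which many cell types make, had 9401, 8127, 8059 and 9534 CPM in liver and 479, 424, 597 and 519 CPM in uterus, so its uterine level did not follow the hepatocyte transcripts. Lpl, the lipase that frees fatty acids from lipoproteins at vessel walls, was the exception, with 845, 753, 3418 and 1014 CPM in uterus against 40.7, 30.7, 24.3 and 13.7 CPM in liver. Pltp, the phospholipid transfer protein, was called higher in uterus with totals (-0.44 ± 0.19) and turned to 0.50 with TMM. Its call was lost without the control pair, the KRG pair or the pair given both (adjusted p = 0.0975, 0.0922 and 0.113).

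Complement and coagulation genes were mostly hepatic. Of 41 tested, 32 were higher in liver and 4 in uterus. F2, prothrombin, had 6593, 6292, 6002 and 6387 CPM in liver and 73.8, 0.729, 123 and 0.608 CPM in uterus. C3, the central complement protein, had 5671, 6748, 6314 and 7396 CPM in liver and 401, 417, 637 and 272 CPM in uterus. The 4 genes higher in uterus were F13a1 (-4.12 ± 0.34), the factor XIII A chain made by macrophages, Thbd (-3.97 ± 0.29), endothelial thrombomodulin, F3 (-2.13 ± 0.24), tissue factor, and Tfpi (-2.12 ± 0.22), its inhibitor.

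Enzymes of drug and hormone clearance were mostly hepatic. Of 48 cytochromes P450 of families 1 to 4, which oxidise drugs, steroids and fatty acids, 41 were higher in liver and 3 in uterus. Cyp3a11, a broad drug oxidase, had 1363, 903, 1032 and 974 CPM in liver and 15.5, 0.437, 25.6 and 0 CPM in uterus. Cyp2e1, which oxidises ethanol and other small molecules, had 1406, 864, 1148 and 808 CPM in liver and 57.8, 39.0, 131 and 12.8 CPM in uterus. The 3 higher in uterus were low genes, and they were Cyp1b1, an extrahepatic estrogen hydroxylase at 2.47, 4.01, 2.54 and 3.92 CPM, Cyp4f16 and Cyp2s1. The call of Cyp2s1 missed the threshold without the BPA pair (adjusted p = 0.0503). Cyp2c genes have near-identical copies, and their separate values, such as 7.73 ± 3.21 for Cyp2c29, are uncertain.

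Of 44 conjugation enzymes, which attach glucuronic acid, sulfate, glutathione or small groups, 34 were higher in liver and 3 in uterus. Ugt1a6b, to which nearly all counts of the shared Ugt1a 3′ end were given, had 2604, 2589, 2435 and 2176 CPM in liver and 203, 501, 202 and 745 CPM in uterus, so the members of that locus were not separable. Ugt2a3 differed by 7.04 ± 1.61. The glutathione transferases Gsta4 (-2.11 ± 0.98) and Gsto1 (-1.47 ± 0.24) and the related Mgst2 were the members higher in uterus.

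Genes of nitrogen disposal were higher in liver throughout. All 43 genes of the urea cycle and amino acid breakdown were higher in liver, at a median difference of 4.84. Cps1, which starts the urea cycle, had 862, 838, 858 and 952 CPM in liver and 11.3, 0, 27.2 and 0.0676 CPM in uterus. Tat, which begins tyrosine breakdown, had 128, 109, 142 and 120 CPM in liver and 1.12, 0.219, 3.08 and 0 CPM in uterus. Ass1, a urea cycle enzyme known to be abundant in liver, was listed at only 1.31, 1.00, 2.54 and 1.05 CPM there, with 20, 13, 37 and 13 counts.

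Bile acid genes were higher in liver for 24 of 27. Cyp7a1, the rate-limiting enzyme of bile acid synthesis, had 108, 114, 141 and 104 CPM in liver and 0.374, 0.219, 2.62 and 0 CPM in uterus, a difference of 6.22 ± 0.64. Slco1a1, an uptake carrier for bile acids and steroid conjugates, differed by 6.24 ± 0.99. Both belonged to the 10 liver genes with the largest difference among those with an SD under 1, a limit that passes over Alb and its like because the uteri differed. The other 8 were Hc (complement C5, 6.76 ± 0.98), Cml2, Cyp2c44 (6.39 ± 0.20), Cdhr5, Fbp1, Tat, Etnk2 and Hsd17b6.

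Genes of fuel metabolism had smaller median differences than the bile acid genes (5.20). Of 25 genes of gluconeogenesis and glycogen, 18 were higher in liver (background 15.0%) and 3 in uterus, at a median of 2.31. Of 31 genes of fatty acid oxidation and ketone synthesis, 28 were higher in liver and none in uterus, at a median of 1.72. Ppara, the receptor that drives fatty acid oxidation genes, had 247, 260, 255 and 252 CPM in liver and 10.01, 15.6, 12.6 and 22.5 CPM in uterus. In uterus Ppara was highest where both agents were given and lowest in the control, unlike the hepatocyte transcripts.

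Tissues also differed in which form of an enzyme or carrier they used. In 23 pairs, the form usual in liver was set against the form usual elsewhere. The pair's log2 difference in liver exceeded that in uterus in all 4 treatments for 22 of 23. This compares genes within a library and hardly depends on scaling. The exception was Pfkl and Pfkm, the liver and muscle phosphofructokinases, and for Tdo2 the partner Ido1 had no count in any library. With both scalings, 11 pairs had the liver form called higher in liver and the other higher in uterus. The glycogen synthase Gys2 made 86.9%, 91.4%, 89.1% and 77.3% of its sum with Gys1, the muscle form, in liver, and 1.77%, 0.253%, 2.18% and 0.422% in uterus. The pyruvate kinase Pklr made 87.0%, 87.5%, 93.2% and 85.2% of its sum with Pkm in liver and 0.450%, 0.414%, 1.27% and 0.0419% in uterus.

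These 2 pairs switched almost fully in every uterus. For Mat1a against Mat2a, which make S-adenosylmethionine, the share of Mat1a was 98.6%, 98.2%, 98.3% and 98.6% in liver but 33.1%, 0.727%, 47.9% and 1.07% in uterus, with the control and KRG uteri high as for the hepatocyte transcripts. The control and KRG uteri were also above the other uteri for Fbp1, Slc2a2 and Cps1 in their pairs. Scd2, a stearoyl-CoA desaturase, was higher in uterus (-4.98 ± 0.16), while Scd1 was abundant in both, at 1737, 1952, 1331 and 926 CPM in liver and 986, 529, 2557 and 533 CPM in uterus, and passed only with TMM (1.59). Pck2, the mitochondrial carboxykinase, had 30.9, 51.4, 29.3 and 42.0 CPM in uterus and at most 2.75 CPM in liver. Pck1 had 2050, 1133, 2236 and 1206 CPM in liver. It was present in uterus too, at 80.9, 68.6, 148 and 40.4 CPM. Its share of the pair there was 72.4%, 57.2%, 83.5% and 49.1%, so Pck2 did not replace it.

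**Figure D3:**
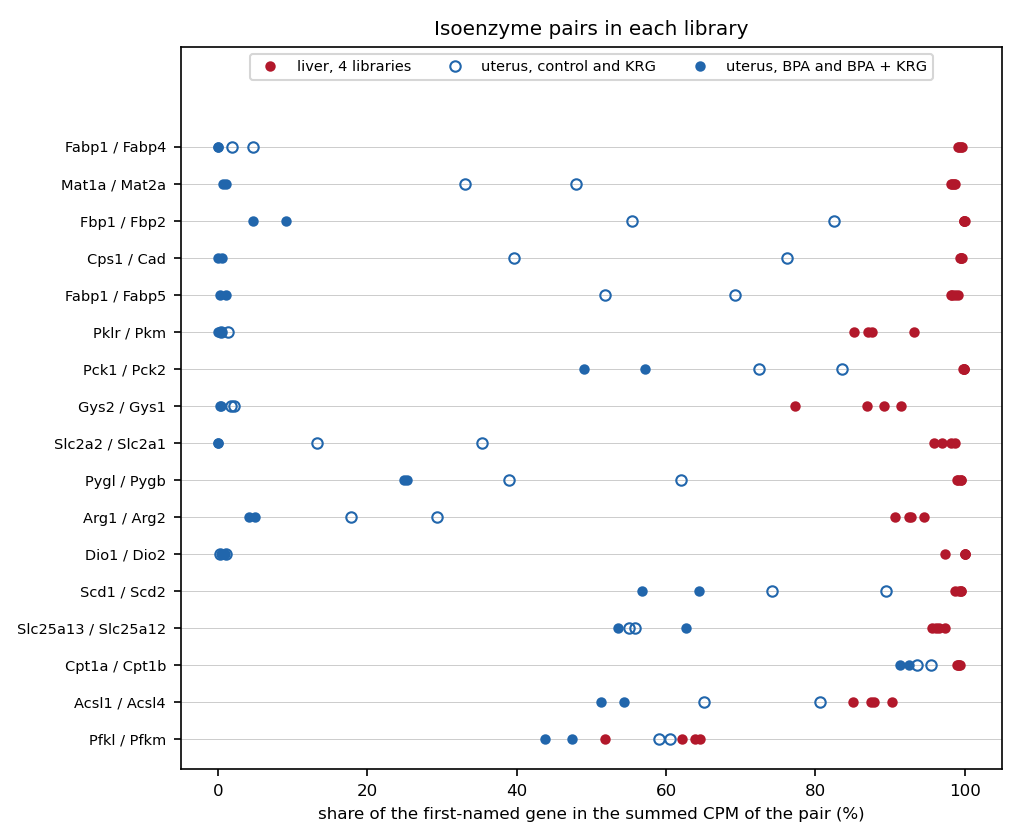
Share of the first-named gene in the summed CPM of each pair (percent), 1 point a library, for 17 pairs. Liver points (red) lie right of all uterus points for every pair but Pfkl and Pfkm, and the open circles of the control and KRG uteri lie apart from the filled ones for Mat1a, Fbp1 and Cps1.

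Transcription factors of liver identity were higher in liver for 18 of 29 (background 15.0%). Hnf4a had 147, 95.4, 126 and 120 CPM in liver and 1.79, 0.146, 3.77 and 0.0676 CPM in uterus (5.92 ± 0.91). Cebpa, a factor of hepatocytes and adipocytes, was abundant in both tissues, with 907, 639, 620 and 847 CPM in liver and 117, 133, 227 and 198 CPM in uterus. Cebpd (-2.28 ± 0.43), Tbx3 (-2.49 ± 0.56) and Gata6 (-1.87 ± 0.44) are on that list but were higher in uterus.

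Of 46 transcription factors of the uterus and Mullerian duct, 40 were higher in uterus (background 38.3%) and none in liver, with a median of -3.75. Msx1, a homeobox factor of uterine receptivity, had 394, 262, 330 and 305 CPM in uterus and 0.392, 0.463, 0.411 and 0.242 CPM in liver (-7.86 ± 0.28). Its antisense neighbour Msx1os had nearly equal values, and the reads of the pair may not be separable. Emx2, needed for the Mullerian duct to form, had 164, 150, 145 and 93.5 CPM in uterus and at most 0.0808 CPM in liver. Osr2 differed by -7.02 ± 0.93 and Meis1, a Hox partner, by -4.52 ± 0.38. Without the control and KRG uteri, 42 of 46 were called higher in uterus with totals and 40 with TMM, and 1 was called higher in liver with each.

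Of 49 nuclear receptors listed, 40 were tested, and 15 were higher in liver (background 15.0%) and 13 in uterus (background 38.3%). With totals alone the count in uterus was 19. The liver side held receptors for xenobiotics, bile acids and fatty acids. Nr1i2 (PXR) had 193, 176, 208 and 187 CPM in liver and 1.57, 0.0729, 6.31 and 0 CPM in uterus. Nr1i3 (CAR) differed by 5.96 ± 1.39, Nr0b2 (SHP), the bile acid responsive repressor, by 5.31 ± 0.41, Nr1h4 (FXR) by 4.31 ± 0.31 and Nr5a2 (LRH-1) by 3.58 ± 0.77. Nr1h3 (LXR alpha) and their common partner Rxra were expressed in both tissues and higher in liver by 2.31 ± 0.51 and 1.67 ± 0.30.

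The uterus side held the steroid receptors Pgr and Esr1. Thra (-2.74 ± 0.20), a thyroid hormone receptor, Nr2f2 (-2.43 ± 0.34), COUP-TFII of uterine stroma, and the low Vdr (-2.88 ± 0.35) were also higher in uterus. Esr2, the estrogen receptor beta, did not exceed 0.308 CPM in any library and was not tested. Gper1, a membrane estrogen receptor, had 32.6, 18.8, 20.8 and 16.6 CPM in uterus and at most 0.206 CPM in liver. Hsd17b2, which inactivates estradiol, was higher in liver by 3.90 ± 1.25. Of the 28 genes of steroid response and metabolism tested, 15 were higher in uterus (background 38.3%) and 5 in liver (background 15.0%).

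**Figure D4:**
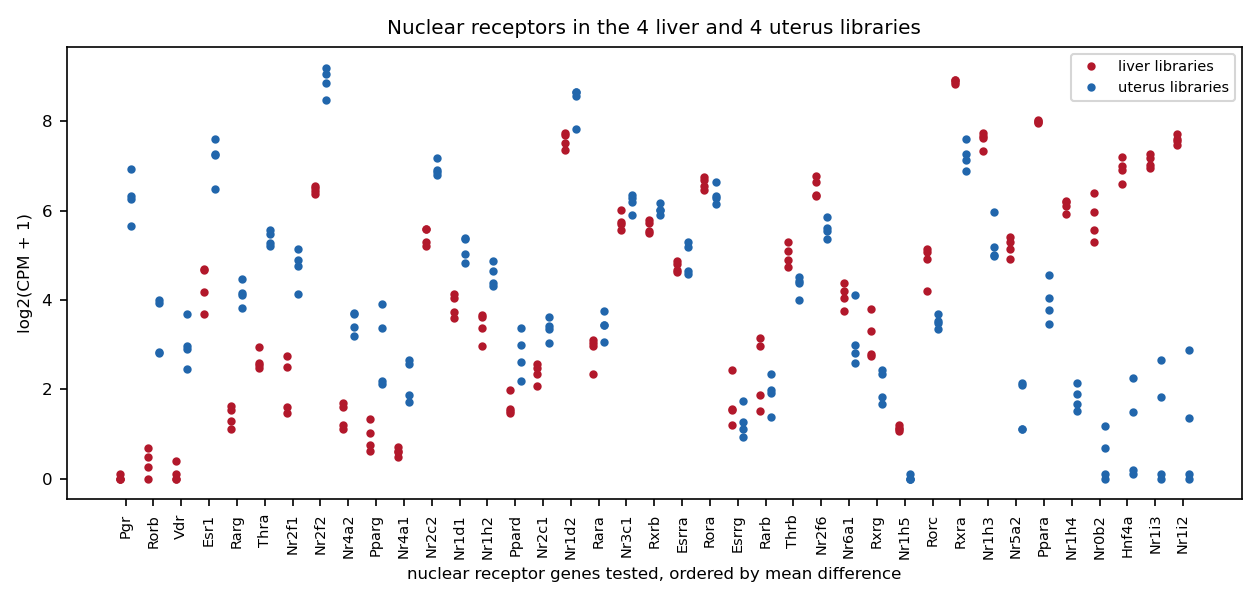
log2(CPM + 1) of 39 nuclear receptor genes in each of the 4 liver (red) and 4 uterus (blue) libraries, ordered by mean difference. Pgr and Rorb stand at the uterus end and Nr1i2, Nr1i3 and Hnf4a at the liver end, where the 4 uterus points are spread.

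Smooth muscle genes stood higher in uterus. Of 35 tested, 28 were higher in uterus (background 38.3%) and none in liver, at a median of -4.34. Cnn1, the actin-binding calponin of smooth muscle, had 364, 431, 562 and 421 CPM in uterus and 0.458, 1.08, 1.23 and 0.566 CPM in liver (-7.93 ± 0.16). Myh11, smooth muscle myosin heavy chain, differed by -7.59 ± 0.23 and Lmod1, which nucleates actin filaments, by -6.44 ± 0.12. Mylk, the myosin light chain kinase, was among the most abundant uterine genes at 4211, 4914, 4723 and 5169 CPM, and had 277, 322, 286 and 248 CPM in liver. Oxtr, the oxytocin receptor, had 12.5, 9.55, 22.5 and 4.93 CPM in uterus and 2 counts in 1 liver.

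Serum response factor binds the CArG box in many contractile genes. Windows of 5 of 38 promoters on the smooth muscle list held a CArG box (13.2%), against 2.77% for genes at least 8-fold higher in uterus, 1.35% of all windows tested and 1.63% of the table. A CArG box can contain TATAAA, so the counts of these 2 motifs overlap. Srf itself, at 246, 243, 209 and 236 CPM in uterus and 25.8, 21.2, 30.3 and 21.5 CPM in liver, holds 2 boxes, and Myl9, a myosin regulatory light chain (-6.70 ± 0.55), and Vcl, vinculin (-1.30 ± 0.27), hold 1 each, in capitals here. The call of Vcl was lost with TMM.
Srf, chr17:46556190-46556269, minus strand: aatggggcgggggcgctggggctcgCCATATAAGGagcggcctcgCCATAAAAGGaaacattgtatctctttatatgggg
Myl9, chr2:156775278-156775337, plus strand: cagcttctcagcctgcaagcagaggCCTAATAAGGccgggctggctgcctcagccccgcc
Vcl, chr14:20929148-20929205, plus strand: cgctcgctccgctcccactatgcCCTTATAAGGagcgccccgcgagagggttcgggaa

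Stromal and matrix genes were higher in uterus for 54 of 60 (background 38.3%) and in liver for 4. Sparcl1, a secreted matrix protein, had 2488, 2612, 2891 and 1012 CPM in uterus and 8.11, 10.9, 15.6 and 8.33 CPM in liver. Collagen I (Col1a1, -6.06 ± 0.66) and collagen III (Col3a1, -4.84 ± 0.69) followed. Fn1, fibronectin, which hepatocytes also secrete into plasma, was 1 of the 4, and had 910, 996, 910 and 962 CPM in liver and 318, 490, 472 and 308 CPM in uterus. Igfbp4, Cxcl12 and Col18a1 were higher in liver by 2.53 ± 0.14, 2.21 ± 0.60 and 2.65 ± 0.34.

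Of 30 uterine epithelial genes, 25 were higher in uterus (background 38.3%) and 2 in liver. Wfdc2, a secreted whey acidic protein, had 2511, 1595, 1421 and 1741 CPM in uterus and 26.5, 29.6, 52.0 and 41.5 CPM in liver. Ltf, lactoferrin, an estrogen-induced secretory protein that neutrophils also make, had 811, 122, 212 and 82.0 CPM in uterus and at most 0.485 CPM in liver. Calb1, a calcium-binding protein, differed by -5.08 ± 0.39. Pigr, the carrier of IgA into bile and mucus, went the other way, with 1129, 1203, 1012 and 1491 CPM in liver and 196, 34.1, 150 and 28.0 CPM in uterus. Esrp2, a splicing factor of epithelium, was higher in liver by 1.44 ± 0.92, a call that missed the threshold without the control pair or the KRG pair (adjusted p = 0.0634 and 0.0699) and without the control and KRG uteri (adjusted p = 0.0667).

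Genes of other epithelium and of fat were also mostly higher in uterus, and different uteri stood out for each. Uroplakins and other genes of bladder lining and squamous epithelium were higher in uterus for 12 of 12 tested, and their sum was 634, 7573, 176 and 12900 CPM in uterus against 0.93 to 2.40 CPM in liver. Upk3a had 67.8, 1279, 7.08 and 2688 CPM in uterus and no count in liver. Krt7 (35.0, 257, 37.2 and 398 CPM) and Cldn4 (44.1, 156, 37.8 and 237 CPM), which are on lists of bile duct and uterine epithelium, were also highest in the 2 BPA-treated uteri. Of 19 adipocyte genes 14 were higher in uterus (background 38.3%) and 2 in liver (background 15.0%). The 19 genes summed to 8896, 8128, 22226 and 8205 CPM in uterus and to 7400, 6748, 6690 and 4961 CPM in liver. Cfd (-9.29 ± 0.99) and Adipoq (-8.56 ± 0.69), the adipocyte proteins adipsin and adiponectin, were 2 of the 10 uterine genes of largest difference with an SD under 1, beside Krt15, Plekhs1, Clca1, Cnn1, Msx1os, Msx1, Gabrp and Myh11. Whether bladder or fat was taken with the uterus was not tested.

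**Figure D5:**
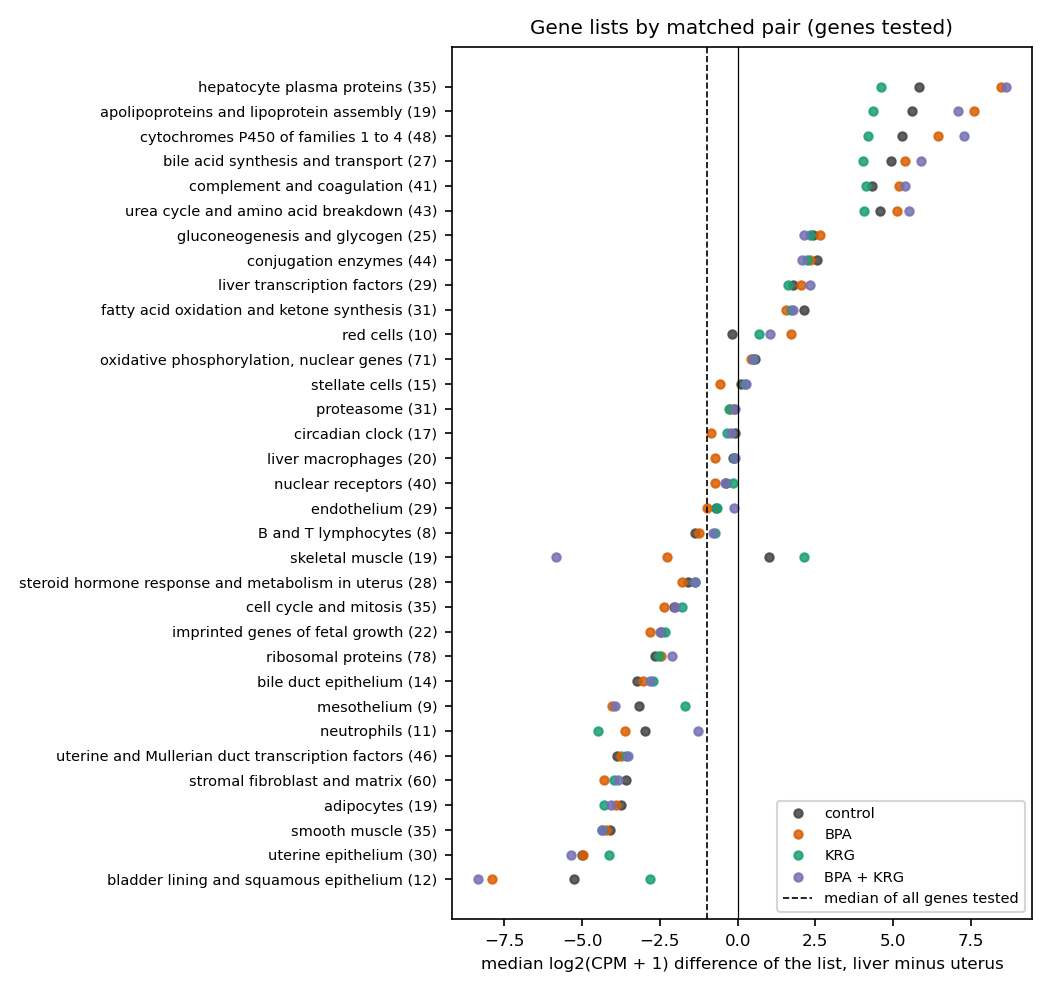
Median difference of log2(CPM + 1), liver minus uterus, for each gene list (number tested in brackets), 1 point for each matched pair, with the median of all genes tested as a dashed line. Liver lists from plasma proteins to amino acid breakdown shift with the pair, smooth muscle and stromal lists hardly move, and skeletal muscle changes sign.

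Markers of cells resident in liver went both ways. Over all genes tested, the shares called under both scalings were 15.0% in liver and 38.3% in uterus. Clec4g, of sinusoidal endothelium, had 31.9, 29.7, 39.9 and 31.4 CPM in liver and at most 0.847 CPM in uterus, and Stab2, a scavenger receptor of the same cells, differed by 4.38 ± 0.32. Of 29 endothelial genes, 7 were higher in liver and 7 in uterus under both scalings, with 16 in uterus by totals alone. Pecam1, common to all endothelium, was higher in uterus with totals (-1.68) and TMM (-0.74). Kdr, another endothelial gene, was higher in liver with totals (0.82) and TMM (1.76). Of 20 liver macrophage genes, 7 were higher in liver and 1 in uterus under both scalings, and 5 in uterus by totals alone. The Kupffer cell genes Cd5l (5.10 ± 0.46), Vsig4 (4.20 ± 0.26) and Clec4f (4.16 ± 0.46) were higher in liver. Cd163, a scavenger receptor of tissue macrophages, was called higher in uterus with totals (-1.61 ± 1.14) but not with TMM, and C1qa was not called with totals (-0.41 ± 0.32). Lyz2, lysozyme of most macrophages, was higher in uterus (-2.75 ± 0.71). Of 15 stellate cell genes, 7 were higher in liver and 4 in uterus, and Gdf2 (BMP9) differed by 5.24 ± 0.95 while Des, desmin, which smooth muscle also makes, differed by -5.42 ± 1.34. Bile duct genes were higher in uterus for 9 of 14, Krt19 and Epcam among them, which uterine epithelium also carries, and Clu was higher in liver.

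Blood cell genes are given by cell type, beside shares over all genes tested of 15.0% called in liver and 38.3% in uterus. Neutrophil genes were higher in uterus for 9 of 11, lymphocyte genes for 5 of 8, and Jchain, of antibody-secreting cells, differed by -4.20 ± 0.94. For red cell genes, 2 of 10 were higher in liver and none in uterus, and without the block and the control and KRG uteri 6 were called higher in liver with totals and 9 with TMM. Without the block alone, 1 was called. The hemoglobin gene Hba-a2, a near-identical copy of its neighbour, is 1 of the 2, and the other, Alas2, lost its call without the BPA pair or the KRG pair and when the pair given both was left out (adjusted p = 0.0616, 0.0567 and 0.0502).

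Skeletal muscle genes varied widely between libraries of 1 tissue. Of 19 skeletal muscle genes 1 was called, Actn3 in uterus (-2.06 ± 1.47), and that call was lost without the BPA pair (adjusted p = 0.0563). Without the treatment block 5 were called higher in uterus, and without the block and the control and KRG uteri, where 20 were tested, 8 with totals and 3 with TMM. Summed, they had 218, 13.7, 587 and 8.57 CPM in liver and 137, 263, 115 and 2089 CPM in uterus. Tnnc2, a fast troponin, showed the widest spread of any gene averaging at least 10 CPM, with 46.6, 0.231, 114 and 0 CPM in liver and 7.17, 21.8, 2.77 and 315 CPM in uterus. Acta1, Ckm, Mb, Myh4, Mylpf, Pvalb, Tnni2 and A930016O22Rik had the same 2 livers and the same uterus high. Amy2a5, pancreatic amylase, had 430 CPM in the BPA liver and at most 1.69 CPM in any other library, and the 20 acinar pancreas genes, of which 3 were tested, summed to 240, 1947, 157 and 185 CPM in liver and 19.5, 65.4, 26.4 and 112 CPM in uterus. Most of the sum outside the BPA liver was the elastase gene Cela1, with 238, 498, 145 and 177 CPM in liver and 16.4, 62.7, 20.5 and 109 CPM in uterus. Cela1 (2.55 ± 1.32) and Cela2a (2.43 ± 2.75) were called higher in liver, and Cela2a exceeded 2 CPM only in the BPA liver. Of 9 mesothelial genes 7 were higher in uterus (background 38.3%), Wt1 among them (-5.39 ± 0.56). Of the 21 ovary and oviduct genes only Star passed the filter (-2.40 ± 1.24).

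Imprinted genes of fetal growth were higher in uterus for 17 of 22 (background 38.3%). Dlk1 had 13.4, 53.1, 69.1 and 55.1 CPM in uterus and 2.16, 5.55, 4.11 and 0.242 CPM in liver, Meg3, from the same imprinted domain, differed by -2.38 ± 0.21, and Igf2 by -2.85 ± 0.25. Nnat, neuronatin, had the largest difference among those higher in uterus (-6.06 ± 0.25). Slc38a4, an amino acid carrier of hepatocytes, was the exception, with 1886, 1999, 1666 and 1718 CPM in liver and 36.2, 7.21, 58.1 and 4.60 CPM in uterus. Igf1, the growth factor that liver supplies to blood and uterine stroma makes locally, had 1357, 1057, 999.8 and 1308 CPM in liver and 206, 153, 269 and 130 CPM in uterus.

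Genes of cell upkeep also differed. Cytosolic ribosomal protein genes were higher in uterus for 75 of 78 (background 38.3%), at a median of -2.42 (-1.48 with TMM). They summed to 18143, 18986, 19558 and 19137 CPM in liver against 126640, 95224, 117387 and 85823 CPM in uterus. Ribosomal protein genes have many processed copies, which makes single values uncertain. Nuclear genes of oxidative phosphorylation went the other way, with 34 of 71 higher in liver with both scalings, 68 with TMM, and none in uterus with both. Over all genes tested, the shares called in liver were 15.0% with both scalings and 30.8% with TMM. Uqcrq, of complex III, had 604, 562, 586 and 653 CPM in liver and 141, 136, 183 and 152 CPM in uterus. Proteasome genes stood near equality with totals (median -0.21), where 2 of 31 were called higher in liver and 9 in uterus. Over all genes tested, totals called 15.0% in liver and 63.9% in uterus. With TMM, 27 of the 31 proteasome genes were called higher in liver (all genes 30.8%) and none in uterus (all genes 38.3%).

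Cell cycle genes were higher in uterus for 26 of 35 (background 38.3%) at a median of -2.05. Top2a, the topoisomerase of dividing cells, had 52.6, 67.8, 26.4 and 54.5 CPM in uterus and 3.07, 0.540, 0.959 and 0.647 CPM in liver. Of 17 clock genes, 4 were higher in liver (background 15.0%) and 1 in uterus (background 38.3%), Bhlhe41 (-2.71 ± 0.94). Some genes hardly differed in CPM. Stk11, the kinase LKB1, had 109, 103, 94.3 and 103 CPM in liver and 108, 96.0, 92.4 and 102 CPM in uterus, and Egln2, Ppap2b, Hypk, U2af1, Mrpl18, Rab14, Tmco1, Kif1b and Timm8b were the other 9 genes averaging at least 100 CPM that were most alike. All 10 were called higher in liver with TMM, so their likeness holds for CPM of column totals only.

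Called genes also lay in runs along chromosomes, a description with no number expected by chance. Calls under both scalings covered 15.0% of tested genes in liver and 38.3% in uterus, so runs arise more readily in uterus. Neighbours are those among the genes placed, and untested genes can lie between them. With 13047 of the tested genes placed in order, 7 runs of at least 8 neighbouring genes were called higher in liver under both scalings. The longest were 19 Mup genes, which encode urinary pheromone carriers (chr4:59956804-62150841), and 11 Cyp2c genes (chr19:39287044-40187286). The Cyp2d, Ugt2b, Cyp2b and Cyp2a, and Serpina1 clusters and the run from Tbccd1 to Kng1 (chr16:22813214-23082078) made up the rest. Near-identical copies share reads in most of these clusters, so neighbours are not independent. In uterus the runs included 10 genes at the Hoxb cluster (chr11:96271330-96759622) and 8 at Hoxd (chr2:74668225-74729160), 14 from Armcx1 to Bex4 on the X chromosome, and 13 from S100a14 to S100a11 (chr3:90526849-93526288), which holds the Sprr genes.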

How the data were processed

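Per the labels' protocols, 500 ng of total RNA per library entered the QuantSeq kit. The authors deposited 1 table of raw whole-number counts per gene and library, holding 23282 entries. Symbols repeat in 44 entries, which stayed separate. Bowtie2, edgeR and mm10 appear in the submitters' processing notes, without versions or roles. Not given in the sources used here are the counter, the use of strand and the treatment of multiply matching reads.

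Counts were scaled to CPM of each column total. Genes with at least 1 CPM in at least 4 of 8 libraries were tested (13692) with edgeR 4.0.16 in R 4.3.3 by a quasi-likelihood test, liver against uterus with treatment as a block, 3 residual degrees of freedom, and Benjamini-Hochberg adjustment over all genes tested. A call is an adjusted p under 0.05. The procedure was tested on simulated data. Samples were paired by treatment, since the labels carry no replicate numbers. Alternatives were TMM factors, DESeq2 1.42.0 (size factors and Wald test), limma 3.58.1, totals without Rn45s, no block, other filters and pseudocounts, leaving out each pair, and, added after seeing the data, leaving out 2 uteri together with the block, at 1 CPM in 2 libraries.

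The members, gene lists and tests were chosen with earlier results of these data known. Named genes were the 10 called genes of largest difference in each direction with an SD under 1, the 6 markers, the 3 called members of largest difference in each list, both members of 23 pairs, the 10 most variable and the 10 most alike. Part of these are described, and some are not reported here. Other genes named were chosen after their values were seen. Promoter windows and positions are from RefSeq tables (GRCm38.p6). PCR copies were not told apart by molecular identifiers, so the fold bounds cover counting error only.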

Additional observations from a re-analysis of the deposited data

Results flagged for a closer look

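In 357 groups of 4 libraries (a named gene in 1 tissue, with at least 10 CPM in some library), the library farthest from the rest was checked by its gap to the nearest other, divided by the whole range. In 33 groups this ratio was above the 95% critical value of Dixon's test for 4 samples. Chance gives about 1 in 20 for genes chosen without regard to spread. That share is no measure here, since the most variable genes were named for their spread and others were chosen after their values were seen.

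The KRG uterus was the highest of the 4 uteri for the adipocyte genes Adipoq (1459 CPM), Cidec (1157 CPM) and Lpl (3418 CPM), for Acsl1 (330 CPM), Nr1h3 (61.5 CPM), Pygl (238 CPM), Mat2a (166 CPM) and Hp (516 CPM), and for the neutrophil gene S100a9 (369 CPM). It was the lowest for Stc1 (58.2 CPM) and Krt5 (51.9 CPM).

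The uterus given both agents was the highest for the skeletal muscle genes Tnnc2 (315 CPM), Acta1 (562 CPM), Ckm (143 CPM), Mb (66.0 CPM), Myh4 (90.9 CPM), Mylpf (147 CPM), Pvalb (83.5 CPM) and Tnni2 (262.5 CPM), for A930016O22Rik (91.3 CPM), and for Il7r (16.7 CPM). It was the lowest for Kdr (39.5 CPM) and Tfpi (21.35 CPM). Col3a1 was lowest in the control uterus (411 CPM).

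Among livers, the BPA library was the highest for Amy2a5 (429.5 CPM), Cela2a (91.5 CPM) and Cyp8b1 (197 CPM) and the lowest for Dcn (153 CPM). The KRG liver was the highest for Tdo2 (894 CPM), Myh4 (14.9 CPM) and Pvalb (15.5 CPM). The liver given both agents was the highest for S100a9 (33.1 CPM) and Pfkl (10.4 CPM).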

How the results depend on the processing

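No paired analysis by replicate number was possible because the labels carry none. Without the treatment block, 2138 genes were called higher in liver and 9007 in uterus. Scaling moved the counts of calls, and the pseudocount those at 8-fold. Calls in liver were 4213 with TMM, 4388 with DESeq2 size factors, 4626 with DESeq2's Wald test and 4371 with TMM without the control and KRG uteri and without the block. Calls in uterus were 5239, 5048, 5262 and 5185 under the same 4, and 5214 when only the 8687 genes averaging 10 CPM or more were tested. Genes at least 8-fold higher in uterus were 736, 709, 709 and 744 under the same 4, 2146 with a pseudocount of 0.25 CPM and 444 with 5 CPM. Leaving out each pair gave 1820 to 1969 calls in liver, 8083 to 8504 in uterus, and 573 to 598 and 1218 to 1371 at 8-fold.

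Among named genes called with totals or with the alternative, those that changed sign had the following differences with TMM, DESeq2 size factors, the Wald test and TMM without the 2 uteri: Psmd7 0.22, 0.28, 0.28 and 0.41; Psmd3 0.34, 0.39, 0.39 and 0.48; Pfkl 0.11, 0.16, 0.16 and 0.24. Mat2a had 0.28, 0.33, 0.33 and 0.43, Acsl4 had 0.85, 0.90, 0.90 and 0.54, and Pltp had 0.50, 0.56, 0.56 and 0.61. Rab14 had 0.85, 0.90, 0.90 and 0.95, Tmco1 had 0.87, 0.92, 0.92 and 0.96, Kif1b had 0.94, 1.00, 1.00 and 0.93, and Timm8b had 0.86, 0.92, 0.92 and 1.02. Slc25a12 changed sign only with TMM without the 2 uteri (0.015), where it was not called. Arg2 changed sign with DESeq2 size factors and the Wald test, at 0.043 in both. The median of all genes moved by 0.86 with TMM and 0.91 with DESeq2 size factors. With 1 library per treatment and tissue, no spread within a treatment could be had.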
